A study of Mus musculus with 12 samples.

Results

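The AP-1, EGR and ATF3 transcription factors described here are the products of *Fos*, *Fosl2*, *Jun*, *Junb*, *Jund*, *Egr1*, *Egr2*, *Egr3*, *Atf3* and *Batf*, which make up 10 of the 18193 genes tested on the arrays. They were taken by gene symbol from a set of stimulus-induced factors that was drawn up with earlier results of these data known, and every probe set that carries one of these symbols and no other was taken, which gave 15 probe sets. For 5 of the genes there was 1 probe set and for the other 5 there were 2. All 10 genes were measured on all arrays, and no filter on low signal was applied.

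Bone marrow-derived macrophages (BMDMs) are the macrophages that grow out of marrow cells cultured with the growth factor M-CSF, here for 7 days. The marrow came from female C57BL/6 mice, and the ages of the mice were not given in the sources used here. Control mice carried floxed *Trsp* on both alleles without Cre (Trsp fl/fl, LysM-Cre-/-). *ΔTrspM* mice carried the same floxed alleles and 1 copy of Cre (Trsp fl/fl, LysM-Cre+/-) under the lysozyme M promoter, which is active in macrophages and other myeloid cells. *Trsp* encodes the tRNA that inserts selenocysteine, so its loss stops selenoprotein synthesis, and the study names cells that escaped deletion and cells other than macrophages as possible sources of residual selenoproteins. No probe set was annotated to *Trsp*, so the deletion itself was not checked on these arrays. Cells of each genotype were left unstimulated or were treated for 4 h with lipopolysaccharide (LPS), the bacterial ligand of toll-like receptor 4. The dose of LPS given for the arrays was not found in the sources used here. RNA was hybridized to 12 mouse GeneChip arrays, 3 in each of the 4 groups. The labels call them biological replicates 1 to 3 and do not tie them to individual mice, so every p-value here sets a difference against the spread among these samples only.

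AP-1 is a dimer of basic leucine zipper proteins. A FOS protein (FOS, FOSL2) pairs with a JUN protein (JUN, JUNB, JUND), while ATF3 and BATF pair with JUN proteins and can turn a dimer into a repressor or direct it to composite sites shared with interferon regulatory factors. EGR proteins are zinc finger factors that bind GC-rich sites. Many of these genes are immediate-early genes, whose transcription starts within minutes of a stimulus through MAP kinases and does not need new protein, and in macrophages they act beside NF-κB on inflammatory genes, with ATF3 known as a brake on cytokine transcription.

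To show the DNA in front of the genes with the largest changes, the 250 bases upstream of the RefSeq start (GRCm38.p6) are printed for *Fos* and *Jun*, which fell with LPS, and for *Junb* and *Batf*, which rose. Sequences read 5′ to 3′ on the strand of the gene, and capitals mark matches to the cAMP response element core TGACGT or to the octamer TGACATCA, each searched on both strands.
*Fos*, chr12:85473640-85473889, plus strand: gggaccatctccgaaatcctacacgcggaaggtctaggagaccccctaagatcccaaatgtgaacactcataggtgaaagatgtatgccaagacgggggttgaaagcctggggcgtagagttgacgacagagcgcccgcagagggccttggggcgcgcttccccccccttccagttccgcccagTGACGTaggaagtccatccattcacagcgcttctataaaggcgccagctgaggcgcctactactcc
*Jun*, chr4:95052223-95052472, minus strand: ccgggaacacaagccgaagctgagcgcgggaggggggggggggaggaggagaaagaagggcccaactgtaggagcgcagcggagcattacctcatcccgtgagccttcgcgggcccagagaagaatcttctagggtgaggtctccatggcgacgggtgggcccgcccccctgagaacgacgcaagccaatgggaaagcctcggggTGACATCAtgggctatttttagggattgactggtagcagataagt
*Junb*, chr8:84978749-84978998, minus strand: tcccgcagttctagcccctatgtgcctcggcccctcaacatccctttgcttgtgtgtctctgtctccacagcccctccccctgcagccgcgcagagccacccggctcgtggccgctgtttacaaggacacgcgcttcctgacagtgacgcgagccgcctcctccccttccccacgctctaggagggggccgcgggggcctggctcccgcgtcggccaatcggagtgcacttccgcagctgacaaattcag
*Batf*, chr12:85686470-85686719, plus strand: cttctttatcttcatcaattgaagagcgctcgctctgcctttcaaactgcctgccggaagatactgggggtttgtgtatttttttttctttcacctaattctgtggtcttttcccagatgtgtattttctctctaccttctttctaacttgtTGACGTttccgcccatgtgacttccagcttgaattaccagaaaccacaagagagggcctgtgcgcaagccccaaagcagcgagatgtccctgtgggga

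RefSeq windows were held for 8 of the 10 genes, and these were searched for 5 motifs on both strands, with genes that have several starts counted once. The classical AP-1 site TGACTCA was in 0 of the 8, against 5.16% of 27025 genes with a window. TGACGT was in 4 of the 8 (*Fos*, *Egr2*, *Atf3* and *Batf*), against 7.29% of all genes. In *Fos* it lay at -66 to -61 from the start, in *Batf* at -98 to -93, and in *Atf3* at -8 to -3. TGACATCA, the JUN and ATF2 type of site, was in *Jun* at -45 to -38 and in no other window of the set, against 3.41% of all genes. The *Junb* window held neither of these motifs. The CArG box, which binds serum response factor, was in *Egr2* (1.62% of all genes), and the κB consensus was in *Fos* and *Fosl2* (4.46%). These matches describe letters within this window only, and they carry no measurement of binding.

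All 8 macrophage markers looked at were measured, and their summed normalized signal lay between 62899 and 74341 over the 12 arrays, with ranges that overlap among the 4 groups. The cytokine genes *Tnf*, *Il1b*, *Cxcl1*, *Cxcl2* and *Il6*, known to respond to LPS, rose in both genotypes (5 of 5 in each, against 7.09% and 7.29% of all genes). *Il6* rose by 7.38 on the log2 scale in control cells and by 8.22 in *ΔTrspM* cells. Without LPS, replicate 2 was the highest array of its group for all 5 genes in both genotypes. *Cxcl2* was there 12.89 on the log2 scale against 10.22 and 9.15 in control cells. In *ΔTrspM* cells it was 12.05 against 10.15 and 10.44. Replicate 2 of the LPS-treated *ΔTrspM* cells stood apart, with a mean deposited signal of 199.7 against 492.0 to 860.9 on the other arrays, and with 47.7% of its probe sets under a signal of 16 against 16.1% to 28.8%. Values given below are log2 of the quantile-normalized signal plus 16, called log2 signal, and fold changes are on that scale, which understates the change of dim genes. Signals of different genes come from different probes and are not compared with each other. A gene was said to rise or fall where the limma test gave an adjusted p under 0.05 over all 18193 genes.

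To find which of these factors had changed after 4 h of LPS, LPS-treated and unstimulated cells were compared within each genotype. In control cells *Junb* and *Batf* rose and *Fos* and *Jun* fell, and in *ΔTrspM* cells *Jund* rose in addition to these. *Batf* and *Fos* changed most, about 7-fold in control cells in opposite directions. The set was put together as stimulus-induced factors, and the signal of *Fos* and *Jun* was lower at 4 h of LPS than without it. No earlier time after LPS was on the arrays, so a rise before 4 h could not be seen. In control cells 2 of the 10 genes passed the test as higher, against 7.09% of all genes, and 2 as lower, against 8.54%. In *ΔTrspM* cells 3 passed as higher, against 7.29% of all genes, and 2 as lower, against 8.51%. The log2 changes of the 10 genes ranged from -2.83 to 2.81 in control cells, with a median of -0.19 (median of all genes -0.05), and from -2.48 to 2.89 in *ΔTrspM* cells, with a median of 0.22 (all genes -0.03).

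Arrays with the same replicate number deviated together, and a fit with that number as a block raised the count in control cells from 4 to 7 of the 10 genes, the added ones being *Fosl2*, *Jund* and *Egr2*, while in *ΔTrspM* cells 5 passed either way. The share of all genes that passed also rose with the block, from 15.6% to 22.6% in control cells and from 15.8% to 22.5% in *ΔTrspM* cells. Over all genes, the split of calls depended on the scaling of the arrays: it was 1290 higher and 1554 lower in control cells, 1162 higher and 2234 lower where each array was divided by its trimmed mean, and 398 higher and 495 lower with no scaling. In *ΔTrspM* cells it was 1326 higher and 1548 lower, 1322 higher and 2189 lower with the trimmed mean, and 262 higher and 3063 lower with no scaling. LPS-treated and unstimulated arrays had no overlap in signal for 7 of the 10 genes in control cells (34.1% of all genes) and for 9 in *ΔTrspM* cells (34.3% of all genes). With 3 arrays against 3, the smallest two-sided exact permutation p is 0.1, so the tests rest on the spread that limma pools over genes.

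**Figure D1:**
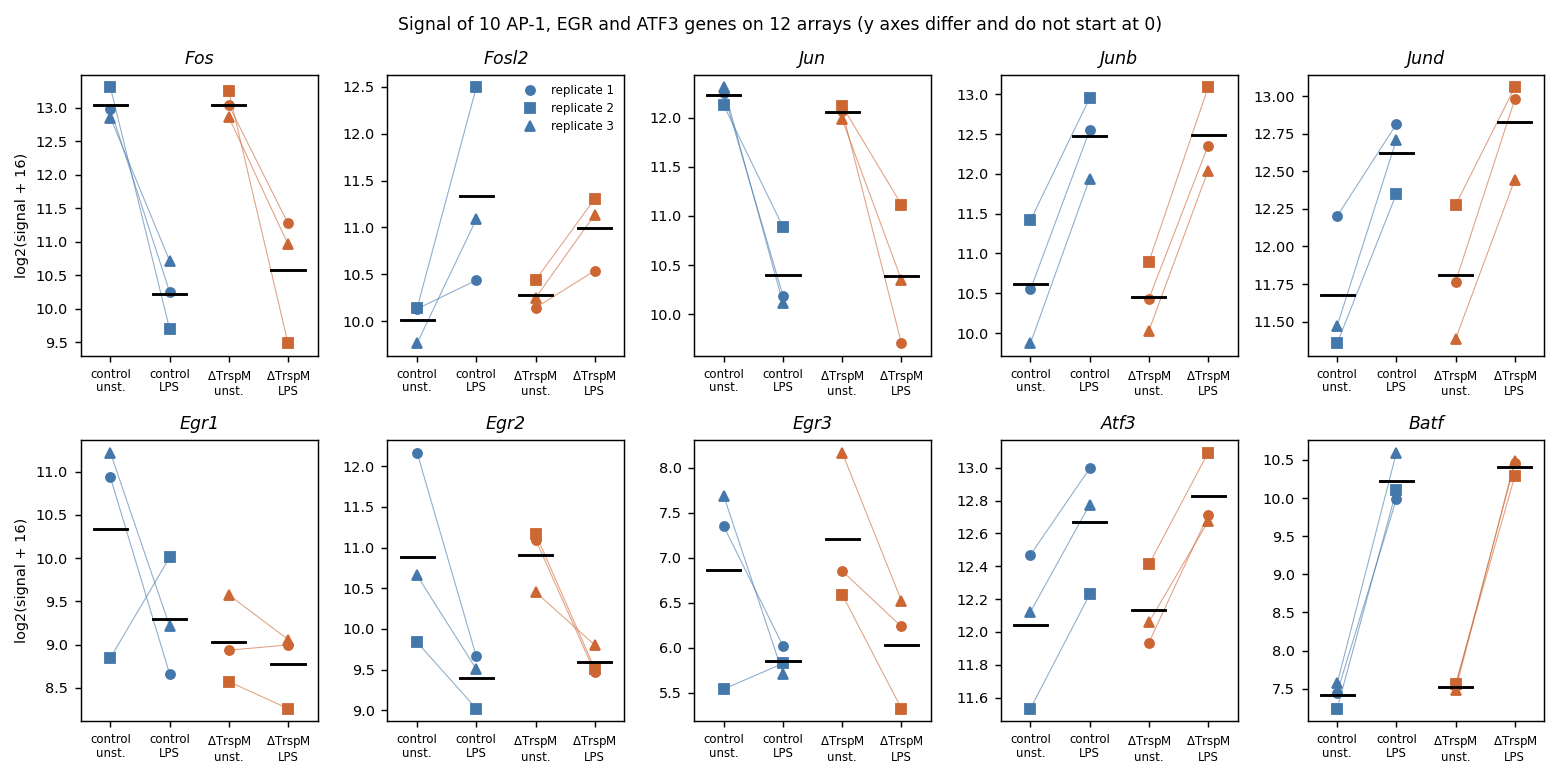
Log2 signal of each of the 10 genes on each of the 12 arrays (y axes, log2 of normalized signal plus 16, differ between panels and do not start at 0), for control (blue) and *ΔTrspM* (orange) cells, unstimulated and after 4 h of LPS. Thin lines join arrays with the same replicate number and thick bars are group means. *Batf* lay between 7.24 and 7.57 on all unstimulated arrays and between 9.99 and 10.60 on all LPS arrays, while *Egr1* spread from 8.85 to 11.22 among unstimulated control arrays.

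Of the FOS family, *Fos* encodes the partner that gives AP-1 dimers their strongest activation. Its log2 signal was 12.99, 13.31 and 12.86 on the unstimulated control arrays (replicates 1 to 3) and 10.25, 9.70 and 10.72 after LPS. In *ΔTrspM* cells it was 13.04, 13.25 and 12.86 without LPS and 11.28, 9.49 and 10.96 after LPS. Every LPS array was below every unstimulated array in both genotypes. *Fos* fell by 2.83 on the log2 scale in control cells (SE 0.42, adjusted p = 0.00103), which is 7.09-fold. In *ΔTrspM* cells it fell by 2.48 (adjusted p = 0.00246), which is 5.56-fold. The spread was wider after LPS than before, with an SD of 0.96 in LPS-treated *ΔTrspM* cells against 0.19 in unstimulated ones, and the lowest of these values came from the dim array. Without that array the fall in *ΔTrspM* cells was 1.93 on the log2 scale and still passed the test (log2 change -1.93, adjusted p = 0.00308).

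*Fosl2* encodes FRA2, a FOS family protein that lacks the strong activation domain of FOS. *Fosl2* had log2 signals of 10.13, 10.14 and 9.77 on the unstimulated control arrays and 10.44, 12.49 and 11.09 after LPS. The *ΔTrspM* arrays gave 10.14, 10.44 and 10.25, and after LPS 10.54, 11.31 and 11.14. All LPS arrays were above the unstimulated arrays of their genotype, but the distance ran from 0.30 to 2.35 over the 6 same-numbered pairs. The log2 change was 1.33 in control cells (95% interval 0.39 to 2.26, adjusted p = 0.0582, and 0.0241 with the replicate block). That in *ΔTrspM* cells was 0.72 (95% interval -0.22 to 1.65, adjusted p = 0.309). Without replicate 1 of the LPS-treated control cells the change there was 1.78 and passed the test (adjusted p = 0.0143), and without replicate 2 of the same cells it was 0.75 (adjusted p = 0.141). The call with the block was lost when replicate 2 of all groups was left out (0.81, adjusted p = 0.147). The other *Fosl2* probe set gave 1.13 in control and 1.33 in *ΔTrspM* cells, and neither passed (adjusted p = 0.236 and 0.159 over all probe sets).

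The JUN family moved in both directions. *Jun* encodes c-JUN, the activating member of the JUN proteins. *Jun* had log2 signals of 12.25, 12.12 and 12.31 on the unstimulated control arrays and 10.19, 10.89 and 10.11 after LPS. Among *ΔTrspM* arrays it was 12.07, 12.12 and 11.98, and after LPS 9.70, 11.12 and 10.35. The unstimulated arrays lay close together, and all LPS arrays lay below them in both genotypes. *Jun* fell by 1.83 on the log2 scale in control cells (SE 0.32, adjusted p = 0.00304), a 3.56-fold difference, and by 1.67 in *ΔTrspM* cells (adjusted p = 0.00539), a 3.18-fold difference. The second *Jun* probe set also fell, with log2 changes of -1.83 and -2.07 (adjusted p = 0.000256 and 0.000130 over all probe sets).

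*Junb* encodes a JUN protein that activates less than c-JUN and can hold it back. The log2 signal of *Junb* was 10.55, 11.42 and 9.87 on the unstimulated control arrays and 12.55, 12.95 and 11.94 after LPS. In the *ΔTrspM* groups the values were 10.43, 10.90 and 10.03, and after LPS 12.35, 13.09 and 12.04. Replicate 2 was the highest and replicate 3 the lowest in all 4 groups, and within each number the LPS array was higher. *Junb* rose by 1.87 on the log2 scale in control cells (SE 0.43, adjusted p = 0.0121), a 3.65-fold difference, and by 2.04 in *ΔTrspM* cells (adjusted p = 0.00799), a 4.12-fold difference. The 6 same-numbered pairs gave rises of 1.54 to 2.19, and the SE with the replicate block was 0.17. The call in control cells was lost without replicate 3 of the unstimulated control cells (log2 change 1.497, adjusted p = 0.0508) and without replicate 2 of the LPS-treated control cells (1.63, adjusted p = 0.0526).

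*Jund* encodes the JUN protein that is present in most resting cells. Its log2 signal was 12.20, 11.36 and 11.47 on the unstimulated control arrays and 12.81, 12.35 and 12.71 after LPS. *ΔTrspM* cells had values of 11.76, 12.28 and 11.38, and after LPS 12.98, 13.06 and 12.44. The groups did not overlap in either genotype. The log2 change was 0.95 in control cells (SE 0.30, adjusted p = 0.0562, and 0.0363 with the replicate block). The change in *ΔTrspM* cells, 1.02, passed the test (adjusted p = 0.0418). These changes differ by little, and the calls fall on both sides of the threshold: in control cells *Jund* passed without unstimulated replicate 1 of the same cells (log2 change 1.21, adjusted p = 0.0310) or without unstimulated *ΔTrspM* replicate 2 (adjusted p = 0.0496), and its change was 0.79 without unstimulated control replicate 2 (adjusted p = 0.158). In *ΔTrspM* cells the call was lost in 7 of the 12 fits that left out 1 array, with adjusted p between 0.0520 and 0.145, among them the one without the dim array (log2 change 0.90, adjusted p = 0.126). The other *Jund* probe set had a mean log2 signal between 5.85 and 6.09 in the groups, and its changes were -0.24 and 0.07.

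*Batf* encodes a small leucine zipper protein with no activation domain of its own, which pairs with JUN proteins. On the unstimulated control arrays its log2 signal was 7.45, 7.24 and 7.57, and it was 9.99, 10.10 and 10.60 after LPS. In *ΔTrspM* cells it was 7.53, 7.56 and 7.48, and after LPS 10.46, 10.29 and 10.49. All 6 LPS arrays lay above all 6 unstimulated arrays. *Batf* rose by 2.81 on the log2 scale in control cells (SE 0.20, adjusted p = 9.99e-06), a 7.01-fold difference, and by 2.89 in *ΔTrspM* cells (adjusted p = 8.68e-06), a 7.40-fold difference. By p-value it stood 31st and 26th among all genes. *Batf* passed the test in both genotypes under all 25 alternatives tried, and the pairs gave rises of 2.54 to 3.03.

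*Atf3* encodes the leucine zipper repressor named above. The log2 signal of *Atf3* was 12.47, 11.53 and 12.12 on the unstimulated control arrays and 13.00, 12.23 and 12.78 after LPS. The corresponding *ΔTrspM* values were 11.93, 12.41 and 12.06, and after LPS 12.71, 13.09 and 12.67. The groups overlapped in control cells, where unstimulated replicate 1 lay above LPS replicate 2, and did not overlap in *ΔTrspM* cells. The log2 change was 0.63 in control cells (95% interval 0.00 to 1.25, adjusted p = 0.177) and 0.69 in *ΔTrspM* cells (95% interval 0.07 to 1.32, adjusted p = 0.133). Within each replicate number the LPS array was higher in 6 of 6 pairs, by 0.53 to 0.78. The fit with the block did not call *Atf3* either (adjusted p = 0.166 and 0.128). That block is 1 shift for each replicate number, shared by all 4 groups. Replicate 2 of *Atf3* was the lowest in both control groups and the highest in both *ΔTrspM* groups, which such a shift cannot take up. The SE was 0.29 with the block and 0.28 without it. A test of the pairs within each genotype was not run. In *ΔTrspM* cells the value depended on the scaling of the arrays: it was 1.06 with arrays centred on the median and 1.12 with the trimmed mean, both of which passed (adjusted p = 0.0263 and 0.0221), and 0.08 with no scaling (adjusted p = 0.933).

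**Figure D2:**
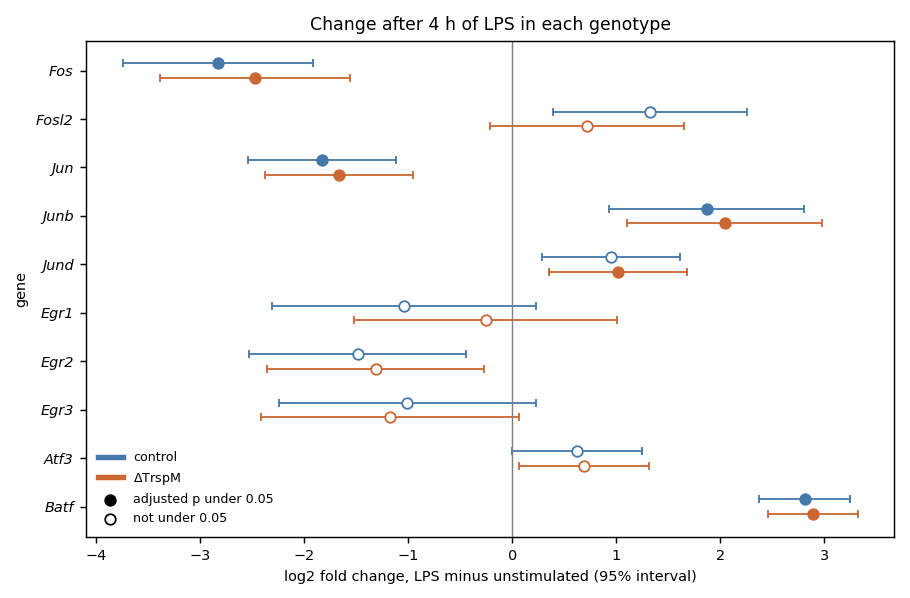
Log2 fold change (x axis, LPS minus unstimulated) of the 10 genes in control (blue) and *ΔTrspM* (orange) cells, 3 arrays in each group. Bars are 95% intervals from limma, and filled points had an adjusted p under 0.05 over all genes. *Fos* and *Jun* lie left of 0, *Junb* and *Batf* right of it, and the intervals of the genotypes overlap for every gene.

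**Figure D3:**
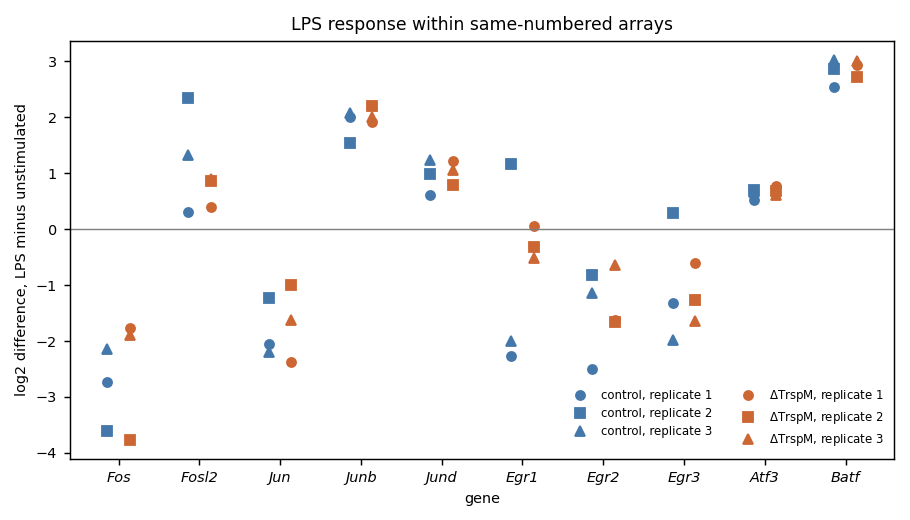
Log2 difference between the LPS array and the unstimulated array of the same genotype and replicate number (y axis) for each of the 10 genes, 6 pairs for each gene. *Junb* (1.54 to 2.19), *Atf3* (0.53 to 0.78) and *Batf* (2.54 to 3.03) form tight groups above 0, and *Egr1* spreads from -2.27 to 1.16.

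Among the unstimulated control arrays the EGR genes had the largest SDs of log2 signal among the 10 genes, at 1.30 for *Egr1*, 1.18 for *Egr2* and 1.15 for *Egr3*. *Egr1* encodes the founding member of the family and is a typical immediate-early gene. *Egr1* had log2 signals of 10.93, 8.85 and 11.22 on the unstimulated control arrays and 8.66, 10.01 and 9.21 after LPS. *ΔTrspM* cells had signals of 8.94, 8.57 and 9.58, and after LPS 8.995, 8.26 and 9.06. Replicate 2 of the unstimulated control cells was low and replicate 2 of the LPS-treated control cells was high, so the groups overlapped. The log2 change with LPS was -1.04 in control cells (95% interval -2.31 to 0.23, adjusted p = 0.272) and -0.26 in *ΔTrspM* cells (95% interval -1.52 to 1.01, adjusted p = 0.822). Without unstimulated control replicate 2 the change in control cells was -1.78 and passed the test (adjusted p = 0.0199), and without unstimulated control replicate 3 it was -0.60 (adjusted p = 0.622).

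*Egr2*, also known as Krox20, has roles in myeloid cells as well as in peripheral nerve. Its log2 signal was 12.16, 9.84 and 10.66 on the unstimulated control arrays and 9.66, 9.02 and 9.51 after LPS. The *ΔTrspM* arrays gave 11.10, 11.17 and 10.45, and after LPS 9.47, 9.51 and 9.80. The LPS arrays lay below the unstimulated arrays in both genotypes, and the LPS array was the lower one in 6 of 6 pairs, with differences from -2.50 to -0.65. The log2 change was -1.49 in control cells (SE 0.47, adjusted p = 0.0564, and 0.0376 with the replicate block) and -1.31 in *ΔTrspM* cells (adjusted p = 0.0887, and 0.0601 with the block). Without unstimulated control replicate 2 both passed the test, with changes of -2.01 (adjusted p = 0.00939) and -1.31 (adjusted p = 0.0382), and without unstimulated control replicate 1 the change in *ΔTrspM* cells passed (adjusted p = 0.0153) while that in control cells was -0.85 (adjusted p = 0.146). The call with the block in control cells was lost when replicate 2 of all groups was left out (-1.82, adjusted p = 0.0520). The other *Egr2* probe set gave -1.64 and -1.39.

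*Egr3* encodes a close relative of EGR2. The log2 signal of *Egr3* was 7.35, 5.54 and 7.69 on the unstimulated control arrays and 6.02, 5.83 and 5.71 after LPS. Among *ΔTrspM* arrays it was 6.85, 6.59 and 8.17, and after LPS 6.24, 5.32 and 6.52. Unstimulated control replicate 2 was again the lowest of its group, and it lay below all 3 LPS-treated control arrays. The log2 change was -1.01 in control cells (95% interval -2.24 to 0.23, adjusted p = 0.276) and -1.17 in *ΔTrspM* cells (95% interval -2.41 to 0.06, adjusted p = 0.198). Without unstimulated control replicate 2 the change in control cells was -1.67 and passed the test (adjusted p = 0.0405), and without unstimulated control replicate 3 it was -0.59 (adjusted p = 0.619). The other *Egr3* probe set was dimmer, with group means of 5.14 to 6.27 on the log2 scale, where the offset alone gives 4, and went the other way, with changes of 0.45 and 1.12 that did not pass (adjusted p = 0.470 and 0.0574 over all probe sets).

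The unstimulated control array that was lowest for *Egr1*, *Egr2* and *Egr3* also had the lowest summed signal of stromal cell markers. Of these, 8 of 8 were measured and none was near 0 on all arrays. Single markers differed: on this array *Thy1* (log2 signal 5.75) was the highest of its group and *Pdgfra* (5.73) was not the lowest, while the others were lowest. Their summed signal was 2938, 511 and 7419 on the unstimulated control arrays and 5519, 962 and 8614 on the unstimulated *ΔTrspM* arrays. After LPS it was 4191, 4775 and 4622 in control cells and 7469, 3236 and 9370 in *ΔTrspM* cells. *Pdgfrb*, a growth factor receptor of mesenchymal cells, passed the test as higher with LPS in both genotypes, and it gave 3942 of the 4775 on LPS-treated control replicate 2. Without *Pdgfrb*, left out after its values were seen, the sums after LPS were 2133, 834 and 2507 in control cells and 5463, 2101 and 7525 in *ΔTrspM* cells, and replicate 2 was then the lowest array within each of the 4 groups. In the other groups the EGR genes were mixed on replicate 2. It was highest for *Egr2* in unstimulated *ΔTrspM* cells (11.17) and for *Egr1* in LPS-treated control cells (10.01). It was lowest for *Egr1* and *Egr3* in both *ΔTrspM* groups and for *Egr2* in LPS-treated control cells, and lay between the others elsewhere. The part of these cells in the EGR signals was not tested, nor was that of the higher cytokine signal on unstimulated replicate 2. In bulk cultures, fewer cells of a type and less RNA in each cell cannot be told apart.

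Some markers of other cells were also higher after LPS. The summed signal of 4 dendritic cell markers was 88 to 109 on the unstimulated control arrays and 222 to 318 after LPS, and 81 to 145 and 324 to 553 in *ΔTrspM* cells. *Ccr7*, a chemokine receptor that macrophages can also switch on, passed the test as higher in both. *Zbtb46* passed as higher in control cells alone (log2 change 1.35, adjusted p = 0.0476, and 0.0604 with the replicate block). Its mean log2 signal went from 5.13 to 6.49 in control cells and from 5.95 to 6.49 in *ΔTrspM* cells. The means of *Flt3* and *Xcr1* went from 5.65 to 5.56 and from 5.67 to 4.99 on the log2 scale in control cells. In *ΔTrspM* cells they went from 5.38 to 5.88 and from 5.32 to 5.85. The sum of the 6 measured of 7 neutrophil markers was 5105 to 9640 and then 6260 to 13963 in control cells, and 3817 to 8195 and then 6378 to 14885 in *ΔTrspM* cells. Among them *Camp* passed the test as higher in both genotypes, with means from 8.06 to 9.53 in control and from 7.80 to 9.47 in *ΔTrspM* cells. The sum of 3 endothelial markers was 137 to 179 without and 229 to 296 with LPS in control cells, and 110 to 136 without and 188 to 603 with LPS in *ΔTrspM* cells, with *Pecam1* near 0 on all arrays. Of these, *Kdr* had a higher mean with LPS, from 6.67 to 7.84 in control and from 6.45 to 8.08 in *ΔTrspM* cells, and passed the test in *ΔTrspM* cells only. The mean of *Cdh5* was lower, from 6.28 to 5.86 and from 5.81 to 5.42, and did not pass. Lymphoid markers (5 of 6 measured) summed to between 94 and 171 on all arrays. Their part in the changes of *Fos*, *Jun*, *Junb*, *Jund* and *Batf* was not tested.

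To ask whether selenoprotein deficiency altered these factors, *ΔTrspM* and control cells were compared with each stimulus. None of the 10 genes passed the test in unstimulated cells, where 0% of all genes did, or after LPS, where 0.011% did. At an unadjusted p under 0.05 there was 1 of the 10 in unstimulated cells (435 of all genes) and 0 after LPS (1051 of all genes). The signals of the genotypes did not overlap for 2 of the 10 in unstimulated cells, *Fosl2* and *Jun*, against 7.32% of all genes, and for 0 after LPS, against 9.14%. For both genes the ranges nearly touched, with *Fosl2* at 10.14 in the highest control and the lowest *ΔTrspM* array and *Jun* at 12.12 in the lowest control and the highest *ΔTrspM* array. The genotypes overlapped on the other probe set of each gene. Its log2 difference in unstimulated cells was 0.14 for *Fosl2* and, in the opposite direction to the first probe set, 0.08 for *Jun*.

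The gene with an unadjusted p under 0.05 was *Egr1*. Its log2 difference in unstimulated cells was -1.31 (95% interval -2.57 to -0.04, adjusted p = 0.99986 in limma, exact permutation p = 0.3). Its mean was 9.03 ± 0.51 (SD, n = 3) in *ΔTrspM* and 10.33 ± 1.30 in control cells, and it was lower in 3 of 3 same-numbered pairs. Control replicate 2 lay inside the *ΔTrspM* range, and without it the difference was -2.05 (adjusted p = 0.917), while without control replicate 3 it was -0.86. After LPS the difference was -0.52 (95% interval -1.79 to 0.74).

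For the remaining genes the intervals bound the differences that 3 arrays a group could show. The narrowest was for *Batf*, with differences of 0.11 (95% interval -0.33 to 0.54) in unstimulated cells and 0.18 (-0.25 to 0.62) after LPS. *Fos* differed by 0.00 (-0.91 to 0.92) in unstimulated cells and by 0.35 (-0.56 to 1.27) after LPS. *Jun* differed by -0.17 (-0.88 to 0.54) and -0.01 (-0.72 to 0.70), and *Junb* by -0.16 (-1.10 to 0.78) and 0.01 (-0.92 to 0.95). *Jund* differed by 0.13 and 0.20, *Atf3* by 0.09 and 0.16, and *Fosl2* by 0.26 and -0.34, each with an interval that held 0. *Egr2* differed by 0.02 and 0.20, and *Egr3* by 0.34 and 0.18, with intervals wider than 2 log2 units. Over both stimuli the *ΔTrspM* array was the higher one in 5 of 6 pairs for *Fosl2*, in 4 for *Fos*, *Egr3* and *Batf*, in 3 for *Junb*, *Jund* and *Egr2*, in 2 for *Jun* and *Atf3*, and in 1 for *Egr1*.

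**Figure D4:**
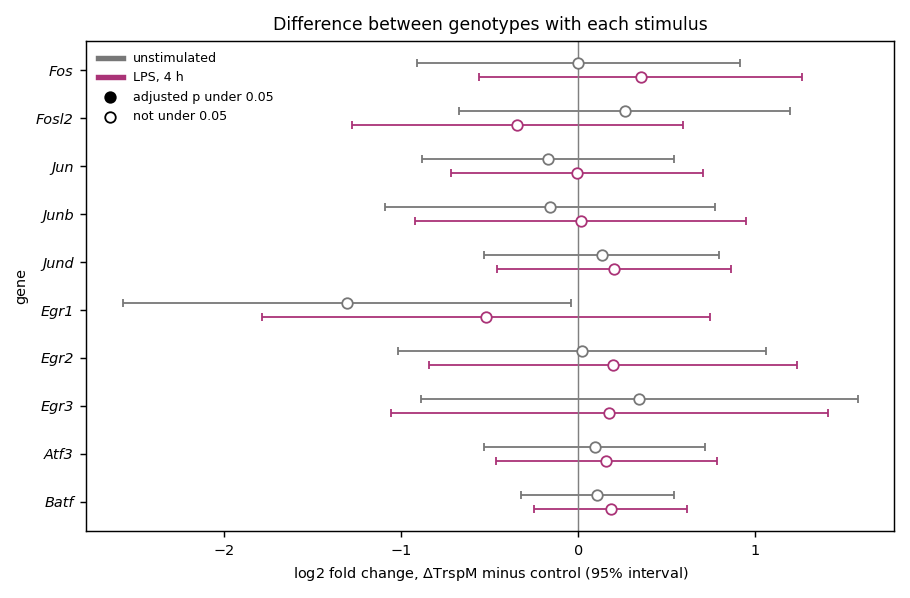
Log2 difference between *ΔTrspM* and control cells (x axis) for the 10 genes, in unstimulated cells (grey) and after 4 h of LPS (purple), 3 arrays in each group. Bars are 95% intervals from limma, and open points mark that none had an adjusted p under 0.05. The interval of *Egr1* in unstimulated cells, -2.57 to -0.04, is the only one without 0.

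The change with LPS was also compared between the genotypes, as an interaction term. None of the 10 genes passed, and 0% of all genes did. At an unadjusted p under 0.05 there were 0 of the 10 and 555 of all genes. The interaction, as the change in *ΔTrspM* minus that in control cells, ranged from -0.61 for *Fosl2* (95% interval -1.93 to 0.71) to 0.78 for *Egr1* (-1.01 to 2.57). For *Batf* it was 0.08 (-0.54 to 0.69) and for *Fos* 0.35 (-0.94 to 1.64). *Jund* passed the test for LPS in *ΔTrspM* cells alone, but its interaction was 0.07 (95% interval -0.87 to 1.01) and did not pass.

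Among the proteins that dimerize with these factors, 7 other AP-1 family genes were measured, and in each genotype *Batf2* and *Jdp2* rose. The median log2 change of the 7 was 0.13 in control and -0.24 in *ΔTrspM* cells (all genes -0.05 and -0.03). Of all genes, 7.09% rose and 8.54% fell in control cells, and 7.29% rose and 8.51% fell in *ΔTrspM* cells. These shares and medians of all genes also stand beside the counts of the lists below. *Batf2*, a relative of *Batf*, rose by 3.57 on the log2 scale in control (adjusted p = 1.53e-05) and 4.09 in *ΔTrspM* cells. *Jdp2*, which encodes a JUN-binding repressor, rose by 1.34 (adjusted p = 0.0371) and 2.05 (adjusted p = 0.00464). *Batf3*, needed for a subset of dendritic cells, fell in *ΔTrspM* cells (log2 change -1.81, adjusted p = 0.00623), while its change in control cells was -0.34 (adjusted p = 0.599), and the interaction did not pass (adjusted p = 0.99998). Its log2 signals on the LPS-treated *ΔTrspM* arrays were low, at 5.45, 5.87 and 4.34, where the offset alone gives 4. *Fosl1*, which encodes FRA1, changed by -1.27 and -1.26 (adjusted p = 0.379 and 0.383), and with the replicate block it fell in both genotypes (adjusted p = 0.0177 and 0.0181).

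Of 9 measured CREB, ATF and C/EBP genes, 3 rose in both genotypes and none fell, with median log2 changes of 0.17 and 0.35. *Cebpd*, a C/EBP factor of the acute phase, rose by 2.19 and 2.54 on the log2 scale, *Creb5* by 1.71 and 1.51, and *Cebpb* by 0.69 and 0.56. *Atf6*, the membrane-bound sensor of protein folding stress, changed by -0.69 in control cells (adjusted p = 0.0760, and 0.0240 with the block). Of 4 measured MAF genes, the small MAF genes *Maff* (2.69 and 2.40) and *Mafk* (1.37 and 1.65) rose in both genotypes. The third small MAF gene, *Mafg*, changed by -0.62 and -0.38 and *Maf* by -0.22 and 0.22, none of which passed. None of the 3 EGR relatives and corepressors (*Egr4*, *Nab1*, *Nab2*) passed in either genotype, and neither did the interferon regulatory factors *Irf4* and *Irf8*, with which BATF dimers share composite sites.

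Upstream of these factors, 4 of 12 measured MAP kinase pathway genes rose in both genotypes and none fell. Of all genes, 7.09% rose in control and 7.29% in *ΔTrspM* cells. The median log2 changes of the 12 were 0.20 and 0.29 (all genes -0.05 and -0.03). *Map3k8* encodes TPL2, which links toll-like receptors to the ERK kinases. Its mean log2 signal went from 8.36 ± 0.55 to 11.91 ± 0.41 (SD, n = 3) in control cells, a rise of 3.54, and by 2.97 in *ΔTrspM* cells. *Mapkapk2*, the kinase downstream of p38, rose by 1.89 and 2.05, *Map3k5* (ASK1) by 1.48 and 1.41, and *Map2k4*, which acts on JNK, by 0.95 and 0.97. *Map2k6*, an activator of p38, changed by -1.38 and -0.95 (adjusted p = 0.0784 and 0.225), and with the replicate block it fell in both genotypes (adjusted p = 0.00197 and 0.0122). Of 4 genes for serum response factor and its ternary complex partners, *Elk3*, which encodes a repressor of that class, fell, with log2 changes of -0.75 and -0.80. *Srf*, *Elk1* and *Elk4* did not pass.

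Other immediate-early genes moved both ways, as the 10 factors did. In control cells 6 of 9 rose and 1 fell, and in *ΔTrspM* cells 5 rose and 1 fell, with median log2 changes of 1.04 and 0.88. *Zfp36*, whose product destabilizes cytokine mRNAs, rose by 1.65 and 1.93, *Btg2* by 1.97 and 1.30 and *Klf6* by 1.04 and 0.88 on the log2 scale. The call of *Btg2* in *ΔTrspM* cells was lost with the replicate block (adjusted p = 0.0508), and that of *Ier5* there was gained (log2 change 0.59, adjusted p = 0.112, and 0.0344 with the block). In control cells the block raised the count from 6 to 8, adding *Dusp1* (0.77, adjusted p = 0.0530, and 0.0143 with the block) and *Nr4a1* (1.68, adjusted p = 0.0507, and 0.0304 with the block). *Myc* fell, with log2 changes of -2.49 in control and -2.34 in *ΔTrspM* cells (adjusted p = 0.000481 and 0.000792). *Ier2* and *Ier3* rose in both genotypes and *Ier5* in control cells. Of the 55 measured genes on these lists, none passed the test between genotypes or in the interaction.

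For the gene with the largest change in each family, the 3 genes with the most similar pattern were taken from 11626 others whose mean log2 signal was 6 or more, by Pearson correlation over the 12 arrays. The arrays share the LPS contrast and the normalization, so these values are a description. *Batf* was most like *Nr4a3* (r = 0.993), a nuclear receptor of the immediate-early class, *Mycl* (0.991), a MYC relative, and *Gm13889* (0.990). *Junb* was most like *Myo10* (0.989), an unconventional myosin, *Agrn* (0.985), which encodes agrin, and *Mdfic* (0.984). *Fos* was most like *Aasdhppt* (0.987), *Gcnt1* (0.986), a glycosyltransferase gene, and *P2ry6* (0.985), a receptor for uridine nucleotides, all of which were lower after LPS. *Egr2* had weaker matches, *Pdcd4* (0.942), *Tubb2a* (0.929) and *Ubqln2* (0.926).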

How the data were processed

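RNA from 12 BMDM cultures was hybridized to 1 array each. The authors state that the data were normalized with Expression Console. Their deposited values are linear signal intensities of 45101 probe sets, and how probes were summarized was not given in the sources used here. The mean deposited signal still ran from 199.7 to 860.9 over the arrays, so the arrays were not on a common level. Groups were taken from the titles of the samples, and 0 columns of sample values were left unused. Depth has no meaning for arrays, and their number limits the precision.

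Control probe sets (64) were dropped, and of the rest 34945 carried 1 gene symbol, 932 several and 9160 none in the platform annotation, which can be old. Those with 1 symbol were used, and where a gene had several, the probe set with the highest mean log2 signal was taken (18193 genes). Quantile normalization ran over every probe set left after the controls, and values were then taken as log2 of the signal plus 16, so low signals are compressed. The 4 groups were fitted together with limma 3.58.1 in R 4.3.3 (8 residual degrees of freedom), with Benjamini-Hochberg adjustment over all genes and a threshold of 0.05. The limma fit alone was tested on simulated log2 values with independent arrays. That test did not cover the normalization, the offset, the dim array or the pairing by replicate number. Single values were also compared by two-sided exact permutation tests, for which 0.1 is the smallest p.

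It was checked whether replicate numbers pair the arrays. With group means removed, all 12 pairs of arrays sharing a number had correlations of 0.126 to 0.442, above the 0.1 required, so the numbers were taken as pairs, although the labels do not say what they stand for. A fit with the number as a fixed block, shared by the 4 groups, had 6 residual degrees of freedom. It is quoted beside each of the 10 genes and each gene of the related lists whose call it altered.

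All 10 genes are named with every probe set. Of 9 lists of related genes (55 of 61 genes measured) counts are given. Up to 4 genes of each list with the smallest p in any contrast were set to be named. Further genes of these lists are named beside them, among them those whose call the block altered. The 6 lists of cell type markers were summed as normalized signal. Members and lists were chosen with earlier results of these data known, so their counts are a description. Promoter windows came from RefSeq (GRCm38.p6), and the search was run on the 250 bases before the start. Alternatives were 3 scalings, offsets of 1 and 64, a filter at a mean log2 signal of 6, 2 treatments of probe sets, a fit restricted to the groups compared, trend and robust variance options in limma, the replicate block, each array left out, replicate 2 left out of all groups with the block, and the methods' t-test. Some genes of the lists and some promoter windows are not analysed here.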

Additional observations from a re-analysis of the deposited data

How the results depend on the processing

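No called value changed sign under any alternative. The count of genes among the 10 that passed the test for LPS in control cells was 4, and it was 7 with arrays centred on the median, with 64 added, with the filter on dim genes, with the trend and robust options, with the replicate block, and with the block after replicate 2 of all groups was left out, where *Egr1* and *Egr3* passed and *Fosl2* and *Egr2* did not. Over all genes the count was 2844, and under these alternatives, in the same order, 2825, 3303, 3328 (of 11627), 3202, 4108 and 2477. Leaving out 1 array gave 3 to 7. The 7 came without unstimulated control replicate 2 (2538 of all genes). The 3 came without unstimulated control replicate 3 (1912 of all genes) or LPS-treated control replicate 2 (2003 of all genes). In *ΔTrspM* cells the count was 5 (2874 of all genes). It was 7 with arrays centred on the median (3369 of all genes) and with the trimmed mean (3511 of all genes), which added *Egr2* and *Atf3*. With 1 array left out it was 4 to 6 (1704 to 3075 of all genes), and 1 by the methods' t-test after adjustment (7.56% of all genes). At the unadjusted 0.01 of the methods that test gave 3 genes in control cells, *Fos*, *Jun* and *Batf*, against 10.9% of all genes. In *ΔTrspM* cells it gave 3, *Junb*, *Egr2* and *Batf*, against 12.0%. After adjustment, that t-test did not call *Fos* (adjusted p = 0.0916), *Jun* (0.104) or *Jund* (0.161) in *ΔTrspM* cells. It called *Junb* in neither genotype (adjusted p = 0.142 in control and 0.0685 in *ΔTrspM* cells). For both comparisons of genotypes and the interaction the count was 0 under every alternative that could be run. The interaction was not run with only the arrays compared or by the methods' t-test.

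The replicate block moved the count over all genes from 2844 to 4108 in control cells and from 2874 to 4086 in *ΔTrspM* cells. Among the 10 genes it changed no call other than those of *Fosl2*, *Jund* and *Egr2* in control cells. With no scaling, the median change of all genes was -0.25 in control cells and -0.73 in *ΔTrspM* cells, and -0.60 between genotypes after LPS. On that scale *Fosl2* changed by -0.41 with LPS in *ΔTrspM* cells, above the median of all genes, and *Junb* (1.29, adjusted p = 0.0622) and *Jund* (0.38, adjusted p = 0.635) were not called there. Of 1230 values of single genes under alternatives, 1146 kept their direction or size and their side of the threshold, 20 lost a call, 34 gained one and 30 moved by more than the spread between arrays. The number of arrays limits what can be seen: with 3 a group, the 95% interval of a genotype difference reached at least 0.54 in size for the gene with the least spread.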
